A study of Rattus norvegicus with 6 samples.

Results

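The collagen genes were taken by name from a gene expression table of rat hind-limb muscle: every gene whose symbol is Col, a type number, a and a chain number. The rule found 44 entries for 43 symbols (Col23a1 is listed at 2 loci) among the 30957 genes of the table. The tissue was the flexor digitorum longus, a toe flexor of the hind limb, of wild-type Sprague-Dawley rats. The ACS group is muscle taken 18 h into acute osteofascial compartment syndrome, produced by tying a low-elastic band loop around the knee. It was set against control muscle at 0 h, with 3 ribosomal RNA-depleted libraries in each group. The samples hold no control at 18 h, so a difference by ACS and one by time cannot be told apart. The treatment label reads ACS for all 6 libraries, so the groups were taken from the sample titles. Whether each library is a rat of its own is not told by the labels, so the p-values describe the spread between these libraries, and that spread may be technical. In a bulk sample, a lower level from fewer cells of a type and one from less RNA per cell cannot be told apart.

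Collagens are triple helices wound from alpha chains, each chain the product of its own gene. Fibrillar collagens (types I, III and V in muscle) build the tensile fibrils of the connective tissue around fibres and bundles, FACIT collagens sit on the surface of those fibrils, type IV forms the sheet network of the basement membrane, and type VI forms beaded filaments that link the basement membrane of the muscle fibre to the matrix around it. In skeletal muscle most collagen mRNA is made by resident fibroblasts, and basement membrane chains also by vessel cells.

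Collagen mRNA took a larger part of the library in ACS muscle. The collagen genes together summed to 3903, 3527 and 4488 CPM (counts scaled to library size, with edgeR's TMM factors) in the ACS libraries, against 1959.8, 1018 and 1809 CPM in the control libraries. Every ACS library was above every control library. The means were 3973 ± 484 CPM in ACS and 1596 ± 506 CPM in control muscle (SD, n = 3 each), a ratio of 2.49, for which no test was made. That ratio was 2.51 without ACS replicate 1 and 2.11 without control replicate 2, the lowest library. As a share of raw counts, collagen genes took 0.291%, 0.354% and 0.425% in ACS muscle and 0.213%, 0.114% and 0.209% in control muscle.

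No single collagen gene passed the test. Of the 44 entries, 30 had enough counts to be tested, and edgeR's quasi-likelihood test called 0 of them, higher or lower, with the threshold at 0.05 after adjustment over all tested genes. Over all 12873 tested genes the same rule called 3.43% higher and 0.707% lower. The smallest adjusted p among the collagens was 0.0560, for Col6a1, and 10 lay under 0.1. At an unadjusted p under 0.05 edgeR had 17 collagen genes higher and 1 lower, where 15.5% of all tested genes were higher and 7.98% lower. For 16 collagen genes every ACS library lay above every control library and for 1 every ACS library lay below, against 16.7% and 14.8% of all tested genes. The other 13 overlapped. In FPKM, which are scaled by library totals, 13 lay above and 1 below.

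The estimates leaned one way. The log2 fold change, ACS over control, was above 0 for 25 of the 30, against 49.3% of all tested genes, and above 1 for 18, against 14.4%. Its median was 1.11 over the tested collagens and -0.011 over all tested genes. Of the 30, 29 held at least 10 counts in every control library, so they did not pass the filter through the ACS libraries alone. DESeq2, run on the same counts without that filter, fitted 41 collagen entries. It called 13 higher and 1 lower, with 8.86% and 2.88% of all its tested genes called. Scaling by library totals in place of TMM moved the median of all genes to -0.32 and that of the collagens to 0.74, with 21 of 30 above 0 and 0 called, against 2.66% of all genes higher and 1.75% lower. With no filter on low counts edgeR called 2 of 41 collagens higher (Col12a1 and Col16a1), with 4.02% of all genes higher and 0.815% lower. With a minimum of 50 counts edgeR again called 2, of 26 tested (Col6a1 and Col16a1), with 4.46% and 1.23% of all genes. Without ACS replicate 3 it called Col6a1, Col6a2 and Col8a1 higher and Col24a1 lower, with 9.72% and 3.01% of all genes called. In limma-voom with quality weights, added after seeing the data, 5 collagens were higher and 1 lower, with 8.23% and 2.77% of all genes called.

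**Figure D1:**
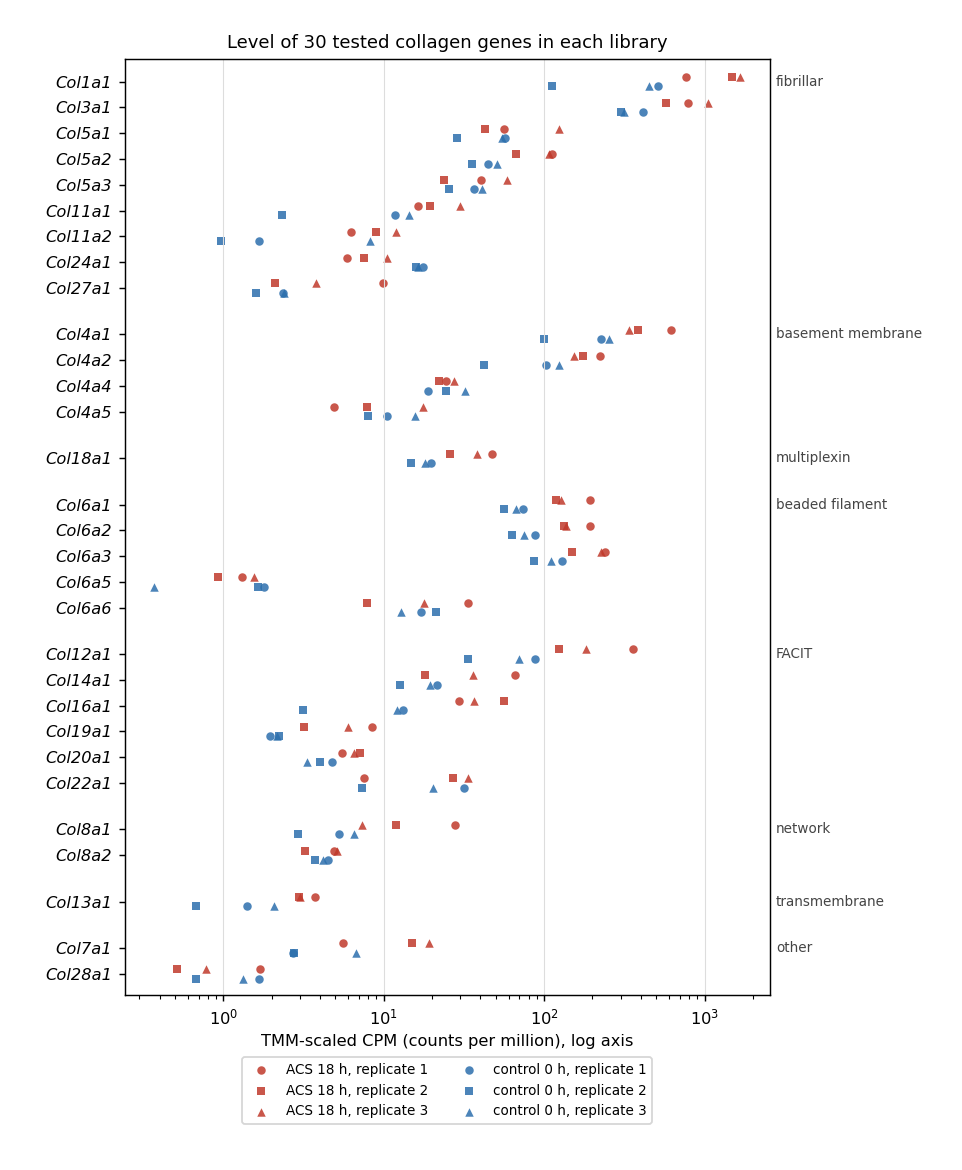
CPM of the 30 tested collagen genes in each library on a log axis, grouped by class, with ACS and control libraries as separate points. For 16 genes all 3 ACS points lie right of all 3 control points, and Col24a1 is the only gene with all 3 ACS points to the left.

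Levels of different genes were compared as FPKM, which corrects for gene length. By the mean FPKM over all 6 libraries, 7 genes made up 83.4% of the collagen total: Col1a1 with 28.6%, Col3a1 with 23.9%, Col4a1 with 9.51%, Col6a1 with 6.67%, Col6a2 with 6.13%, Col4a2 with 5.50% and Col5a2 with 3.06%. This order pools the groups. In ACS muscle Col1a1 held a mean share of 31.4% and Col3a1 of 23.2%, and in control muscle Col1a1 held 19.5% and Col3a1 26.02%, with overlap between libraries. The table lists Col1a2, the partner chain of Col1a1 in type I collagen, at 0 in all 6 libraries, although Col1a1 held between 2316 and 29955 counts in each. Col15a1 and the second Col23a1 locus are also listed at 0. The shares therefore stand for the listed genes only, and no statement is made on type I collagen as a whole.

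Fibrillar collagens ranged from the most abundant collagen genes of the table to ones near 0. Of 11 genes 9 were tested, and their median log2 fold change was 1.21, with 4 separated above and 1 below. Over all tested genes 16.7% were separated above and 14.8% below. Col1a1, the alpha-1 chain of type I collagen and the main fibril chain of tendon and muscle connective tissue (chromosome 10, 82745801 to 82762789, build Rnor 6.0), was at 768, 1488 and 1670 CPM in ACS muscle, against 510.3, 112 and 449 CPM in control muscle. All ACS libraries were higher, but control replicate 2 lay far under the other controls. The means were 1309 ± 477 CPM in ACS and 357 ± 214 CPM in control muscle (SD, n = 3 each). The log2 fold change was 1.87 (SE 0.576, edgeR adjusted p = 0.0968), with a 95% interval of 0.56 to 3.19, and 1.40 without control replicate 2. In FPKM Col1a1 averaged 209 ± 96.0 in ACS and 68.6 ± 40.9 in control muscle (SD, n = 3 each).

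Col3a1, whose product forms fine fibrils together with type I, was at 788, 572 and 1049 CPM in ACS muscle, against 414, 303 and 313 CPM in control muscle (log2 fold change 1.23, SE 0.332, edgeR adjusted p = 0.0724). Its groups did not overlap, and its controls were closer together than those of Col1a1. Col5a2, a chain of type V collagen, which starts type I fibrils and limits their width, was at 112, 66.6 and 107 CPM in ACS muscle, against 44.3, 35.5 and 50.5 CPM in control muscle (1.13, SE 0.288, adjusted p = 0.0609). Its ACS libraries too were all above the controls. On build Rnor 6.0, Col3a1 and Col5a2 lie on chromosome 9 on opposite strands, 33293 bases apart. The other type V chains had smaller estimates. Col5a1 was at 55.8, 42.7 and 124 CPM in ACS muscle, against 57.3, 28.6 and 55.0 CPM in control muscle, and its log2 fold change of 0.66 (adjusted p = 0.400) was 0.062 without ACS replicate 3. Col5a3, the third type V chain, overlapped as well (0.25, adjusted p = 0.700) and turned lower under library totals (-0.083).

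The chains best known from cartilage fibrils were low. Col11a1 was at 16.4, 19.4 and 30.1 CPM in ACS muscle, against 11.8, 2.32 and 14.4 CPM in control muscle. The ACS libraries were all higher in CPM but overlapped the controls in FPKM (log2 fold change 1.21, edgeR adjusted p = 0.247). Col11a2 (1.31, adjusted p = 0.305) overlapped through control replicate 3, without which its log2 fold change was 2.75. Col27a1, also a cartilage chain, had 9.91 CPM in ACS replicate 1 and at most 3.79 CPM in the other libraries, so that its log2 fold change of 1.301 was 0.48 without that library. Col2a1, the main chain of cartilage, had too few counts for the test. It held 4, 1 and 18 counts in ACS muscle and 2, 2 and 18 counts in control muscle.

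Col24a1, a minor fibrillar chain described in developing bone and cornea of mice, was the exception. It was at 5.89, 7.56 and 10.5 CPM in ACS muscle, against 17.4, 15.997 and 16.3 CPM in control muscle. The controls were tightly grouped and every ACS library was under them. The means were 7.996 ± 2.36 CPM in ACS and 16.6 ± 0.763 CPM in control muscle (SD, n = 3 each), with a log2 fold change of -1.05 (SE 0.297, edgeR adjusted p = 0.0794). Without ACS replicate 3 it was -1.301 (adjusted p = 0.0287), without ACS replicate 1 -0.88 (adjusted p = 0.0811) and without ACS replicate 2 -1.04 (adjusted p = 0.161). Without control replicate 1, 2 or 3 it was -1.06, -1.12 and -1.10 (edgeR adjusted p = 0.252, 0.239 and 0.213), in fits that called 0 of all genes.

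The promoter of Col24a1, 250 bases before to 50 bases after the transcription start, is shown with those of the tested genes with the smallest adjusted p that have a RefSeq entry, Col6a1 and Col16a1, so that the regions can be compared beside their values. RefSeq's table for build GRCr8 held promoters for 34 of the 43 symbols and for 24 of the 30 tested. Both strands were searched for the GC box, spelled GGGCGG, and the CCAAT box, which is its own spelling. They were also searched for the letters TATAAA of the TATA box and for the AP-1 site, spelled TGACTCA. Matches on either strand are in capitals.
Col24a1, chr2:236872384-236872683, plus strand: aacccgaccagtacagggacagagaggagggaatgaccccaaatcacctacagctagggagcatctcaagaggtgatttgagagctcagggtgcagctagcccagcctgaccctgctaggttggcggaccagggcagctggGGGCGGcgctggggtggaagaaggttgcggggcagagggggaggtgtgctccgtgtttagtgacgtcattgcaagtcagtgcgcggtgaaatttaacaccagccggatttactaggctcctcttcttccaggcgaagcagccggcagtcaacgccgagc
Col6a1, chr20:11905440-11905739, plus strand: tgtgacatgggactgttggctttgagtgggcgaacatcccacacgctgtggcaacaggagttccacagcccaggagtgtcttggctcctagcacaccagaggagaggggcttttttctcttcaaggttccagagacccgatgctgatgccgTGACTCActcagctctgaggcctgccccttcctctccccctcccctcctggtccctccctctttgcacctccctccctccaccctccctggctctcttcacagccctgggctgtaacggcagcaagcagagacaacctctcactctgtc
Col16a1, chr5:147672846-147673145, plus strand: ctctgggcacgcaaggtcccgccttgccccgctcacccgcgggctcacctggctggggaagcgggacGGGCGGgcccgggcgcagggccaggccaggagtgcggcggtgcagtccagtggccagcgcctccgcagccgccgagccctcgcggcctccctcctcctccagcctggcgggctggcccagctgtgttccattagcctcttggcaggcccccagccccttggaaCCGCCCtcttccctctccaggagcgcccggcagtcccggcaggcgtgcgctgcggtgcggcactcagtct
Col24a1 and Col16a1 hold GC boxes, and Col6a1 holds the AP-1 letters and no GC box. A GC box stood in 16 of the 24 tested collagens with a promoter, 66.7%, against 33.1% of all 33469 promoters. The CCAAT letters stood in 7, 29.2%, against 37.5% of all, and TATAAA in 1 (Col13a1), 4.17%, against 14.2%. The AP-1 letters stood in 1, 4.17%, against 4.63%. The 33469 promoters were not limited to genes tested here, so the sets compared are unlike. Col4a1 and Col4a2, whose windows overlap, each count among the 24. A match is a run of letters and not a measured site.

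Basement membrane collagens split into a pair that was higher on average and a pair with estimates near 0. Of 5 genes 4 were tested. In 2 of them every ACS library was above every control library, against 16.7% of all tested genes. Col4a1, one of the main chains of every basement membrane, was at 620, 384 and 338 CPM in ACS muscle, against 225, 99.2 and 255 CPM in control muscle (log2 fold change 1.21, SE 0.419, edgeR adjusted p = 0.127). Col4a2, which joins a pair of Col4a1 chains in the common type IV helix, was at 224, 175 and 154 CPM in ACS muscle, against 102, 42.0 and 124 CPM in control muscle (1.04, SE 0.402, adjusted p = 0.163). For both genes ACS replicate 1 was the highest library and control replicate 2 the lowest. The ratio of Col4a1 to Col4a2 FPKM was 2.08, 1.64 and 1.65 in ACS muscle and 1.65, 1.77 and 1.55 in control muscle. The groups overlapped, with a log2 difference of 0.10 and p = 0.7 in a two-sided exact permutation test, which cannot go under 0.1 with 3 libraries against 3.

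Col4a1 and Col4a2 are read outward from one region. Their RefSeq starts on GRCr8 are 77 bases apart on opposite strands of chromosome 16, and their promoter windows share 176 bases, chr16:84885471-84885646. The window of Col4a1 is shown because both genes' values bear on it, and the shared stretch runs from its base 125 to its end. Capitals mark CCAAT and GC boxes on either strand.
Col4a1, chr16:84885347-84885646, plus strand: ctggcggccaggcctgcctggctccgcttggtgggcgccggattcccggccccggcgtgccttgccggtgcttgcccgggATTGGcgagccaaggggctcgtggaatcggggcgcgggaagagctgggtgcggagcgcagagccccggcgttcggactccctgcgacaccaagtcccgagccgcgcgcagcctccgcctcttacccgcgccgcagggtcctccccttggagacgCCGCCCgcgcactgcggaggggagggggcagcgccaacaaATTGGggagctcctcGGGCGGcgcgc
In the deposited table, which uses the older build Rnor 6.0, the annotated ends of the same genes are 83600 bases apart.

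The chains of the specialised basement membranes known from kidney had estimates near 0, and their difference from that pair was not tested. Col4a4 was at 24.5, 22.1 and 27.4 CPM in ACS muscle, against 19.0, 24.6 and 32.2 CPM in control muscle. The groups overlapped fully, with a log2 fold change of -0.035 and a 95% interval from -0.66 to 0.59 (edgeR adjusted p = 0.954), so a log2 difference of 1 in either direction lies outside the interval. The gene 373 bases away on the opposite strand, LOC100911572, is described in the table as like the alpha-3 chain of type IV, the partner of Col4a4. It had 74, 108 and 186 counts in ACS muscle, against 153, 116 and 304 counts in control muscle (log2 fold change -0.16, adjusted p = 0.829). Col4a5 was at 4.86, 7.87 and 17.6 CPM in ACS muscle, against 10.5, 7.97 and 15.6 CPM in control muscle (-0.16, adjusted p = 0.864). Its ACS libraries lay on both sides of its controls, and without ACS replicate 3 its log2 fold change was -0.83. Col4a6 held at most 8 counts in any library and was not tested.

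Col18a1, a multiplexin of vessel and epithelial basement membranes whose end piece is endostatin, was at 47.6, 26.02 and 37.9 CPM in ACS muscle, against 19.8, 14.7 and 18.1 CPM in control muscle. The groups did not overlap (log2 fold change 1.08, SE 0.293, edgeR adjusted p = 0.0722). Its relative Col15a1 is listed at 0. A locus described as like the alpha-1 chain of type XV, LOC100909752, had 12, 35 and 82 counts in ACS muscle and 81, 67 and 47 counts in control muscle, which overlapped (-0.27, adjusted p = 0.798).

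The core chains of type VI collagen differed by similar amounts. Of 6 genes 5 were tested, with a median log2 fold change of 0.91 and 3 separated above, against 16.7% of all tested genes. Col6a1, the alpha-1 chain (chromosome 20, 12658065 to 12675561, build Rnor 6.0), was at 194, 119 and 128 CPM in ACS muscle, against 73.4, 56.2 and 66.3 CPM in control muscle. The groups were clear of each other and the controls close together. The means were 147 ± 40.8 CPM in ACS and 65.3 ± 8.66 CPM in control muscle (SD, n = 3 each), with a log2 fold change of 1.17 (SE 0.284, edgeR adjusted p = 0.0560). It was 0.92 without ACS replicate 1 (adjusted p = 0.0460), 1.26 without ACS replicate 2 (adjusted p = 0.0747) and 1.25 without ACS replicate 3 (adjusted p = 0.0365). Without control replicate 1, 2 or 3 it was 1.20, 1.02 and 1.14 (edgeR adjusted p = 0.207, 0.252 and 0.196), in fits that called 0 of all genes. The promoter of Col6a1 is the one above with the AP-1 letters.

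Col6a2, the alpha-2 chain, lies 97865 bases from Col6a1 on the same strand. It was at 192, 134 and 137 CPM in ACS muscle, against 87.7, 62.9 and 74.4 CPM in control muscle (log2 fold change 1.04, SE 0.273, edgeR adjusted p = 0.0664). Col6a3, the large alpha-3 chain that completes the helix, was at 238, 149 and 225 CPM in ACS muscle, against 129, 86.8 and 111 CPM in control muscle (0.91, SE 0.296, adjusted p = 0.110). All 3 chains thus had every ACS library above every control library, with log2 fold changes between 0.91 and 1.17. The FPKM ratio of Col6a1 to Col6a2 was 1.20, 1.06 and 1.11 in ACS muscle and 0.991, 1.06 and 1.06 in control muscle (log2 difference 0.11, exact permutation p = 0.2). For the chains that can stand in for alpha-3 the groups overlapped. Col6a6 was at 33.7, 7.87 and 17.7 CPM in ACS muscle, against 17.2, 21.1 and 12.8 CPM in control muscle (0.21, adjusted p = 0.817), and was lower under library totals (-0.20) and without ACS replicate 1 (-0.41). Col6a5 lay near 1 CPM in both groups (log2 fold change of -0.0041, adjusted p = 0.997), and Col6a4 held at most 2 counts in a library. The difference between the core and the stand-in chains was not tested.

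**Figure D2:**
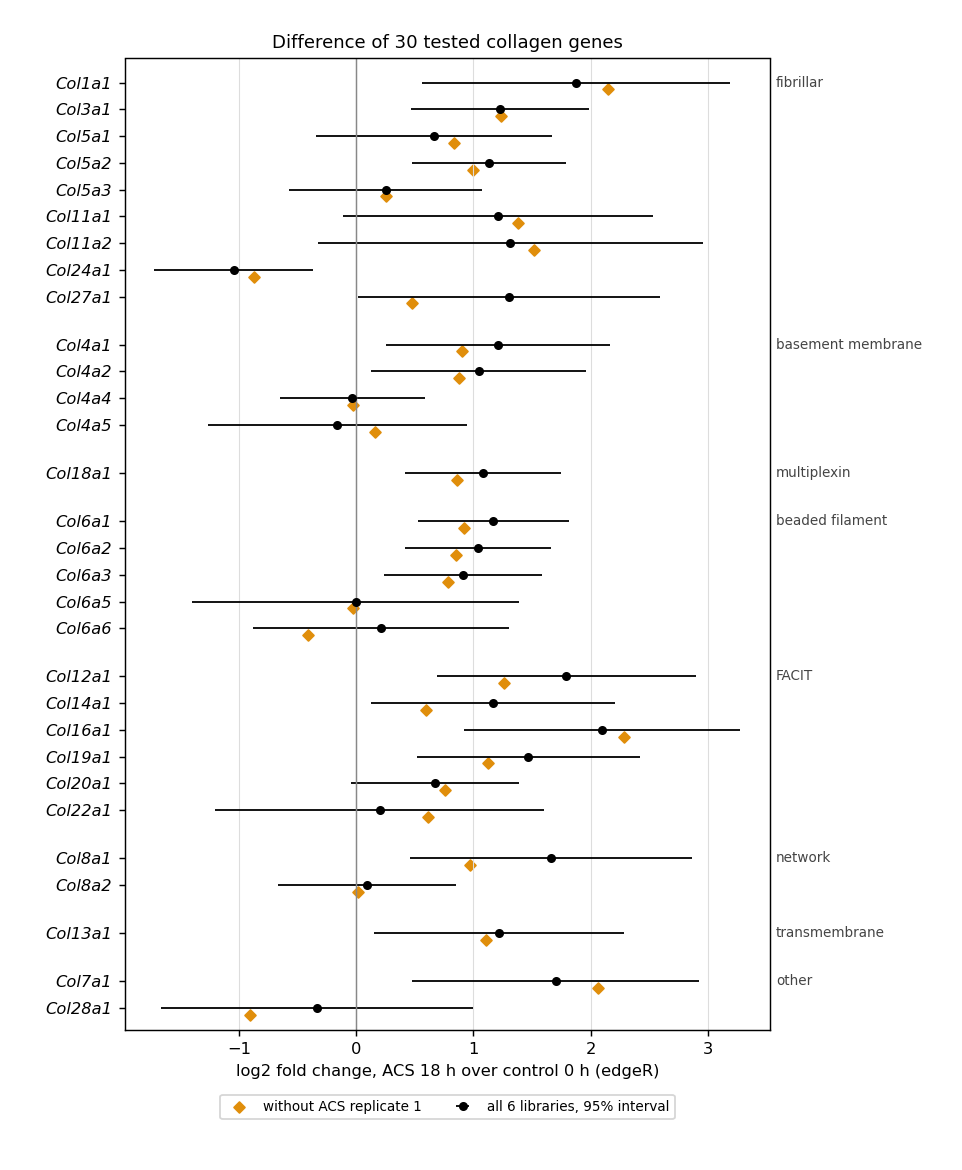
Log2 fold change of each tested collagen gene, ACS over control, with 95% intervals from edgeR's quasi-likelihood fit, grouped by class and diamonds for the estimate without ACS replicate 1. The vertical line at 0 marks no difference. Estimates run from -1.05 in Col24a1 to 2.10 in Col16a1, and 25 of 30 are above 0.

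The FACIT gene Col16a1 had the largest estimate of the tested collagens. Of 9 genes 6 were tested, all with a log2 fold change above 0 (median 1.32), against 49.3% of all tested genes. In 4 of them every ACS library was above every control library, against 16.7% of all tested genes. Col16a1, a fibril-surface chain found in smooth muscle and skin (chromosome 5, 148257642 to 148311645, build Rnor 6.0), was at 29.3, 55.9 and 36.6 CPM in ACS muscle, against 13.2, 3.14 and 12.1 CPM in control muscle. Every ACS library was well above the highest control. The means were 40.6 ± 13.8 CPM in ACS and 9.48 ± 5.52 CPM in control muscle (SD, n = 3 each), with a log2 fold change of 2.10 (SE 0.518, edgeR adjusted p = 0.0580). It was 2.28 without ACS replicate 1 (adjusted p = 0.0344) and 1.63 without control replicate 2 (adjusted p = 0.159).

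Col12a1, which binds type I fibrils in tendon, ligament and muscle connective tissue, was at 357, 124 and 181 CPM in ACS muscle, against 88.0, 33.4 and 69.9 CPM in control muscle. The ACS libraries were all higher and ACS replicate 1 was far above the others. The log2 fold change was 1.79 (SE 0.486, edgeR adjusted p = 0.0724), and 1.26 without ACS replicate 1. Col14a1, its close relative on the same fibrils, was at 66.2, 18.0 and 36.0 CPM in ACS muscle, against 21.5, 12.6 and 19.3 CPM in control muscle (1.17, SE 0.456, adjusted p = 0.168). Its ACS replicate 2 lay under 2 of the controls. The FPKM ratio of Col12a1 to Col14a1 was 2.74, 3.50 and 2.56 in ACS muscle and 2.08, 1.35 and 1.84 in control muscle. It was the only one of 8 ratios between partner chains whose groups did not overlap, with a log2 difference of 0.75 and an exact permutation p = 0.1, the smallest possible, or 0.533 after Benjamini-Hochberg adjustment over the 8 ratios. The adjusted p of the other ratios lay between 0.533 and 0.9. Of those not given elsewhere, Col5a1 to Col5a2 had a log2 difference of -0.54 (exact permutation p = 0.3), Col6a3 to Col6a1 of -0.25 (exact p = 0.4) and Col11a1 to Col11a2 of -0.35 (exact p = 0.9).

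Col19a1, a rare chain known from muscle of the oesophagus in mice, was at 8.42, 3.19 and 6.02 CPM in ACS muscle, against 1.95, 2.22 and 2.15 CPM in control muscle. Its controls were nearly equal and all ACS libraries were above them (log2 fold change 1.47, SE 0.418, edgeR adjusted p = 0.0801). Col20a1 was at 5.52, 7.15 and 6.52 CPM in ACS muscle, against 4.77, 4.01 and 3.30 CPM in control muscle, a narrow separation (0.67, adjusted p = 0.239) that was not present in FPKM. Col22a1, the chain of the junction between muscle fibre and tendon, was at 7.48, 26.9 and 33.7 CPM in ACS muscle, against 31.8, 7.35 and 20.4 CPM in control muscle. Both groups spread over the same range (0.20, adjusted p = 0.870), and the estimate was below 0 under library totals (-0.039). The cartilage chains Col9a1, Col9a2 and Col9a3 held at most 11 counts in a library and were not tested.

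The remaining classes were low. Col8a1, a short-chain network collagen of vessel walls and the eye, was at 27.7, 11.9 and 7.36 CPM in ACS muscle, against 5.26, 2.90 and 6.56 CPM in control muscle. The groups did not overlap in CPM but did in FPKM, and the log2 fold change of 1.66 (SE 0.528, edgeR adjusted p = 0.104) was 0.97 without ACS replicate 1. Its partner Col8a2 was at 4.86, 3.24 and 5.13 CPM in ACS muscle, against 4.48, 3.72 and 4.17 CPM in control muscle. Those groups overlapped (0.094, adjusted p = 0.887), and the estimate was -0.24 under library totals. The FPKM ratio of Col8a1 to Col8a2 was 5.51, 3.55 and 1.39 in ACS muscle and 1.14, 0.755 and 1.52 in control muscle, so ACS replicate 3 lay among the controls (log2 difference 1.46, exact permutation p = 0.2).

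Col13a1, a transmembrane collagen of the neuromuscular junction, was at 3.74, 2.98 and 3.01 CPM in ACS muscle, against 1.41, 0.677 and 2.06 CPM in control muscle, without overlap (log2 fold change 1.22, edgeR adjusted p = 0.163). Col7a1, the anchoring fibril chain of skin, was at 5.61, 14.96 and 19.1 CPM in ACS muscle, against 2.73, 2.75 and 6.73 CPM in control muscle. ACS replicate 1 lay under control replicate 3, and the log2 fold change was 1.70 (SE 0.539, adjusted p = 0.104). Col28a1, known from peripheral nerve, lay near 1 CPM in both groups (-0.34, adjusted p = 0.750). Of the 14 entries that were not tested, 11 had a count in at least 1 library, and none exceeded 18 counts in any. They were Col2a1, Col4a6, Col6a4, Col9a1, Col9a2, Col9a3, Col10a1, Col17a1, Col25a1, Col26a1 and the first Col23a1 locus.

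The make-up of the collagen pool was less distinct between the groups than its size. Fibrillar genes took 49.0%, 63.9% and 70.1% of the collagen FPKM in ACS muscle, against 57.9%, 54.5% and 54.5% in control muscle. Basement membrane genes took 20.3%, 15.2% and 10.8% in ACS muscle and 16.3%, 14.0% and 21.2% in control muscle, and type VI genes 19.7%, 13.8% and 12.2% in ACS muscle and 17.0%, 23.8% and 16.1% in control muscle. Each class overlapped between the groups, and ACS replicate 1 held more of its collagen in basement membrane and type VI genes than the other ACS libraries. The share of Col1a1 alone was 18.8%, 40.1% and 35.4% in ACS muscle, against 24.7%, 10.1% and 23.7% in control muscle, and that of Col3a1 was 23.6%, 18.9% and 27.2% in ACS muscle, against 24.5%, 33.4% and 20.2% in control muscle. The FPKM ratio of Col3a1 to Col1a1 was 1.25, 0.470 and 0.767 in ACS muscle and 0.992, 3.31 and 0.852 in control muscle. The groups overlapped (log2 difference -0.88, exact permutation p = 0.4), and Col3a1 was above Col1a1 in ACS replicate 1 and, by more, in control replicate 2.

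**Figure D3:**
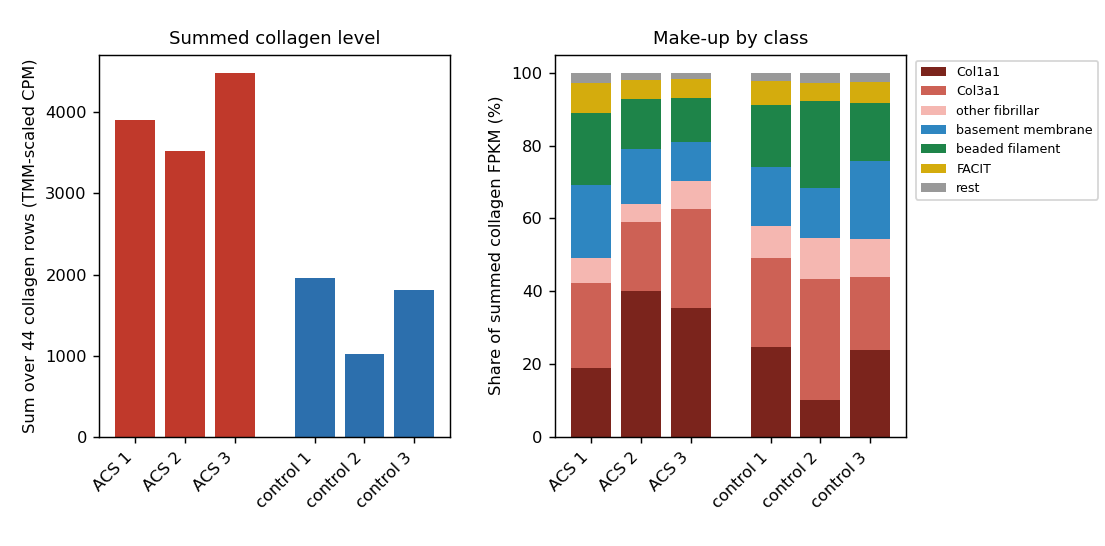
Summed CPM of the 44 collagen entries in each library (left panel) and the share of the summed collagen FPKM taken by each class, in percent, with Col1a1 and Col3a1 split from the other fibrillar genes (right panel). The ACS bars in the left panel run from 3527 to 4488 and the control bars from 1018 to 1959.8, and the fibrillar share runs from 49.0% to 70.1% over the ACS libraries and from 54.5% to 57.9% over the controls.

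**Figure D4:**
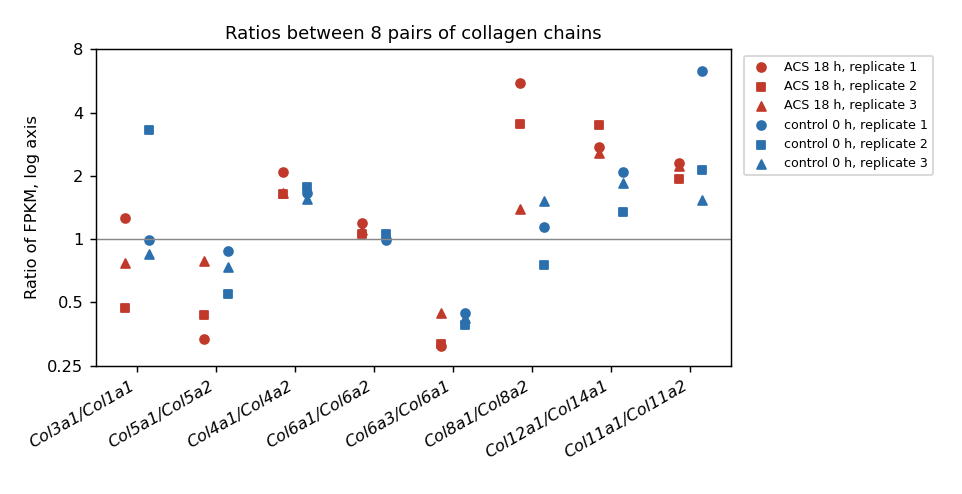
FPKM ratio of 8 pairs of collagen chains in each library on a log axis, ACS points left of control points within each pair. The Col12a1 to Col14a1 ratio is the one pair without overlap, and Col4a1 to Col4a2 and Col6a1 to Col6a2 stay within narrow bands in both groups.

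Libraries differed in ways that touch these values. Totals lay between 14340865 and 19376341 counts in ACS muscle and between 18450886 and 21003928 counts in control muscle. Mitochondrial genes took 43.4%, 4.82% and 5.33% of the counts in ACS replicates 1, 2 and 3, and between 7.52% and 8.60% in control muscle. ACS replicate 1 was the highest of the 6 libraries for 15 of the 30 tested collagens, and control replicate 2 the lowest for 19. Without ACS replicate 1 the 32 collagens then tested had a median log2 fold change of 0.84. In that fit edgeR called Col1a1, Col6a1, Col7a1 and Col16a1 higher, with 4.99% of all tested genes called higher and 1.69% lower. Without control replicate 2 the median was 0.77 and 0 of 32 collagens were called, in a fit that called 0 of all 13222 tested genes. The 8 muscle fibre markers tested summed to between 82332 and 196239 CPM in ACS muscle and to between 127690 and 150299 CPM in control muscle, so the labelled tissue held its defining genes in every library.

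Markers of connective tissue cells were not called. Of 8 tested fibroblast markers (of 10 listed) 0 were called, and the list summed to 1177, 961 and 701 CPM in ACS muscle, against 525, 753 and 833 CPM in control muscle. Most of that sum is Gsn, which muscle also expresses. Of the 8, Pdgfra, Mfap5 and Pi16 had every ACS library above every control library, Cd34 had every one below, and the others overlapped. Over all tested genes 16.7% were above and 14.8% below in this way. Pdgfra, the receptor that marks muscle fibroblasts, was at 82.9, 28.7 and 29.1 CPM in ACS muscle, against 15.2, 24.8 and 19.2 CPM in control muscle (log2 fold change 1.25, edgeR adjusted p = 0.140), and Cd34 at 23.4, 14.5 and 24.4 CPM in ACS muscle, against 31.5, 26.4 and 32.4 CPM in control muscle (-0.54, adjusted p = 0.280). Of 7 tendon cell markers 0 were called, and their sums were 743, 564 and 231 CPM in ACS muscle, against 198, 129 and 285 CPM in control muscle. Scx and Mkx, the defining factors of tendon cells, lay between 0.374 and 9.15 CPM and overlapped, while the matrix genes Fmod, Thbs4, Comp and Chad were highest in ACS replicates 1 and 2. Tnmd was at 3.37, 4.16 and 3.62 CPM in ACS muscle, against 2.39, 0.918 and 1.94 CPM in control muscle (1.09, edgeR adjusted p = 0.174). Tnmd and Comp, 2 of the 7, had every ACS library above every control library, against 16.7% of all tested genes. The other tendon markers overlapped. The median log2 fold change of the list was 1.28. No fibroblast or tendon marker that was matched was at 0 in all libraries.

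Of 9 tested endothelial markers 0 were called, with sums of 724, 448 and 258 CPM in ACS muscle and 508, 330.4 and 449 CPM in control muscle. Among 10 smooth muscle and pericyte markers 1 fell (Lmod1), where 0.707% of all tested genes were called lower. They summed to 367, 344 and 315 CPM in ACS muscle, against 501, 414 and 533 CPM in control muscle, without overlap. Tagln, Lmod1, Notch3 and Kcnj8, 4 of the 10, had every ACS library below every control library, against 14.8% of all tested genes. The others overlapped. Of 8 Schwann cell markers 0 were called, and their sums were 85.3, 55.2 and 77.6 CPM in ACS muscle, against 90.1, 123 and 113 CPM in control muscle. Where 3.43% of all tested genes were called higher, all 7 tested neutrophil markers rose. They were near 0 in control muscle, so the ACS libraries alone could carry them past the filter, and a gene that did so had to differ. They summed to 468, 46.1 and 93.7 CPM in ACS muscle, against 3.85, 4.25 and 9.12 CPM in control muscle. Macrophage markers, with 0 of 9 called, summed to 1739, 181 and 124 CPM in ACS muscle, against 52.8, 85.9 and 73.3 CPM in control muscle. Most of that sum is Lyz2, and without it the list summed to 186, 86.5 and 45.8 CPM in ACS muscle, against 30.6, 49.3 and 49.5 CPM in control muscle, which overlapped. Cd68, C1qb, C1qc and Lyz2, 4 of the 9, had every ACS library above every control library, and Adgre1 had every one below. Over all tested genes these shares were 16.7% and 14.8%. The other macrophage markers overlapped. Of the cartilage list Sox9 rose, at 51.3, 28.9 and 32.6 CPM in ACS muscle, against 4.68, 5.36 and 3.71 CPM in control muscle (log2 fold change 3.03, edgeR adjusted p = 0.00957), while Acan was at most 2.79 CPM and Matn3 was at 0. The part of any of these cell types in the collagen levels was not tested.

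The genes that make, cut and bind collagen mostly missed the threshold too. Of 79 genes in 6 lists 74 were tested, and 4 rose, 5.41% against 3.43% of all tested genes, and 0 fell. Mmp8 and Mmp9 are among the 4 and passed the filter through the ACS libraries, so the 5.41% is not read as an excess. Of 17 genes for hydroxylation, folding and secretion 1 rose: Fkbp10, an endoplasmic reticulum prolyl isomerase that binds procollagen, was at 14.8, 14.96 and 9.37 CPM in ACS muscle, against 5.41, 3.33 and 3.59 CPM in control muscle (log2 fold change 1.66, edgeR adjusted p = 0.0397). The median of that list was -0.012, and the collagen chaperone Serpinh1 was at 71.7, 29.0 and 58.3 CPM in ACS muscle, against 75.0, 50.3 and 71.3 CPM in control muscle. The estimates of the folding genes thus centred on 0, and the difference from the collagens was not tested.

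Of 12 tested genes for propeptide removal and crosslinking 0 were called, with a median log2 fold change of 0.77. Lox, which crosslinks fibrils, was at 80.4, 84.8 and 8.59 CPM in ACS muscle, against 7.89, 4.45 and 8.21 CPM in control muscle (3.08, edgeR adjusted p = 0.0553), so that ACS replicate 3 was close to the controls. Loxl2, of the same family, was at 18.3, 13.6 and 18.0 CPM in ACS muscle, against 9.60, 5.36 and 6.81 CPM in control muscle (1.20, adjusted p = 0.0662). Pcolce, which speeds the removal of the C-propeptide, was at 38.3, 27.0 and 28.4 CPM in ACS muscle, against 19.9, 12.2 and 15.3 CPM in control muscle (0.98, adjusted p = 0.0835). Neither overlapped.

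Of 9 tested collagen receptors 0 were called. Itgb1, the shared beta chain of the collagen-binding integrins, was at 786, 452 and 387 CPM in ACS muscle, against 185, 194 and 221 CPM in control muscle (log2 fold change 1.44, edgeR adjusted p = 0.0541). Its groups did not overlap. Of the alpha chains that pair with it, Itga1, Itga10 and Itga11 overlapped (0.24, -0.45 and -0.19). Itga2 was low and separated, at 3.27, 0.977 and 0.669 CPM in ACS muscle, against 0.195, 0.483 and 0.371 CPM in control muscle (2.16, adjusted p = 0.116). It passed the filter through the ACS libraries, which favours a separation, so that separation is not read as a result. Of 8 tested collagen-degrading proteases 3 rose, where 3.43% of all tested genes were called higher. Mmp2, a gelatinase made by fibroblasts, was at 174, 140 and 77.2 CPM in ACS muscle, against 49.4, 48.6 and 47.3 CPM in control muscle (1.43, adjusted p = 0.0489). Mmp8, the neutrophil collagenase, was at 31.8, 3.86 and 11.4 CPM in ACS muscle, against 0.244, 0.145 and 0.371 CPM in control muscle (5.89, adjusted p = 0.0155). Mmp9, a gelatinase of neutrophils and macrophages, also rose (5.02, adjusted p = 0.0471). Mmp8 and Mmp9 were near 0 in control muscle and passed the filter through the ACS libraries, so their calls add nothing to the count for the list. None of these genes was called by edgeR when any 1 control library was left out, a setting in which it called 0 of all genes.

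Of 17 tested fibril partners 0 were called, with a median of 0.92. Fn1, the fibronectin on which collagen fibrils assemble, was at 1792, 442 and 295 CPM in ACS muscle, against 153, 130 and 118 CPM in control muscle (log2 fold change 2.66, edgeR adjusted p = 0.0575), with ACS replicate 1 far above the rest. Of 11 genes of TGF-beta signalling, which drives collagen transcription in fibroblasts, 0 were called and the median was 0.93. Tgfbr2, a receptor of the pathway, was at 82.002, 72.0 and 42.4 CPM in ACS muscle, against 34.4, 27.1 and 36.2 CPM in control muscle. Its groups did not overlap (log2 fold change 1.008, edgeR adjusted p = 0.0910), and neither did those of the ligand Tgfb2, at 41.3, 53.98 and 54.3 CPM in ACS muscle, against 31.9, 40.7 and 29.6 CPM in control muscle (0.55, adjusted p = 0.226). The ligands Tgfb1 (0.51, adjusted p = 0.606) and Tgfb3 (-0.082, adjusted p = 0.910) overlapped.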

How the data were processed

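The deposited table gives, per the file headers, read counts and FPKM for 30957 genes in 6 libraries. Per the submitters' processing notes, the tools were HISAT2 2.0.4 and StringTie 1.3.0 and the build Rnor 6.0. The counting tool, strand setting and treatment of multiply matching reads are not stated there, so overlapping or near-identical loci are uncertain. The authors' deposited FPKM matched count over length and library total within 0.1% in 12363 of 12363 genes checked. All pairs of libraries differed beyond sampling noise (chi-square per degree of freedom 38.2 to 721).

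Counts were filtered with filterByExpr (minimum count 10, minimum total 15), scaled by TMM and tested over 12873 genes with edgeR 4.0.16 (quasi-likelihood, Benjamini-Hochberg, threshold 0.05). Standard errors were derived from the F statistic, and intervals are 95%. FPKM ratios were tested by exact permutation. DESeq2 1.42.0, limma 3.58.1, R 4.3.3 and matplotlib 3.10.9 served the alternatives and figures. The script was tested on simulated data.

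All collagens were named. Given in full were, in each class, the 3 most abundant and the 2 with the smallest p. Those separated past 1 on the log2 scale were too. Col28a1 and the untested Col10a1, Col23a1, Col25a1 and Col26a1 fell under this rule but were given without per-library values. Of each other list up to 3 genes were named by adjusted p, and further ones were chosen after their values were seen. A gene of these lists is not reported here. The members and lists were chosen with earlier results of these data known. Of 159 list entries 154 were matched, 4 through an older symbol. Promoters are RefSeq's, build GRCr8. Coordinates of genes are on Rnor 6.0.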

Additional observations from a re-analysis of the deposited data

How the results depend on the processing

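Over the 17 to 20 alternatives in which each was fitted, the estimates of 23 of the 30 tested collagens kept their sign (21 above 0, 2 below), and those of 7 did not. The alternatives tested 24 to 41 of the collagen entries, and collagens called numbered 0 in 13 alternatives. Among these were the fits without control replicate 1, 2 or 3, in which 0 of all genes were called. Higher and lower calls were 13 and 1 in DESeq2, 2 and 0 with no filter, 2 and 0 with a minimum of 50 counts, and, in an alternative chosen after seeing the data, 5 and 1 in limma-voom with quality weights. Leaving out 1 library gave 0 to 4 higher and 0 to 1 lower; these fits with 2 libraries in an arm pool their spread with the other arm. With a replicate block edgeR called 1 higher (Col12a1) and 0 lower, of 442 and 63 over all genes. The replicate numbers do not pair the samples by the correlation of same-numbered deviations (-0.063, 0.011 and 0.040).

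Higher calls in the lists numbered 3, 2, 4 and 2 in DESeq2 for crosslinking, receptors, fibril partners and TGF-beta, 0 for proteases and 1 for TGF-beta in limma-voom, and 1 each for fibril partners and TGF-beta with the replicate block. Leaving out 1 library gave 0 to 1 for folding, 0 to 2 for crosslinking, 0 to 2 for receptors, 0 to 3 for proteases (0 to 1 lower), 0 to 5 for fibril partners and 0 to 3 for TGF-beta. Of all genes, DESeq2 called 8.86% higher and limma-voom 262 genes, and edgeR 4.99% without ACS replicate 1 and 9.72% without ACS replicate 3. The cause was not tested.

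Signs turned as follows, in log2. With library totals Col5a3 was at -0.083, Col6a6 at -0.20, Col22a1 at -0.039 and Col8a2 at -0.24. In limma on log2(FPKM + 1), with or without its filter, they were at -0.12, -0.20, -0.087 and -0.12, and with 0.1 added at -0.14, -0.30, -0.15 and -0.23. With quality weights Col5a3 was at -0.076, Col6a6 at -0.55, Col8a2 at -0.12 and Col6a5 at 0.027. Col6a5 was also at 0.010 with DESeq2's size factors, 0.29 in limma-voom, 0.18 with the replicate block and 0.19 with a term for ji, a mark in the description of 1 library per group, and Col6a6 at -0.041 in limma-voom. Without the ji libraries, also chosen after seeing the data, Col4a4 was at 0.090, Col22a1 at -0.18 and Col8a2 at -0.031. Leaving out each library in turn gave ranges of -0.11 to 0.49 for Col5a3, -0.26 to 0.14 for Col4a4, -0.83 to 0.16 for Col4a5, -0.48 to 0.29 for Col6a5, -0.41 to 0.55 for Col6a6, -0.24 to 0.66 for Col22a1 and -0.041 to 0.24 for Col8a2. For the ratios it gave -0.0079 to 0.16 for Col4a1 to Col4a2 and -0.77 to 0.25 for Col11a1 to Col11a2. No cause of these turns was tested. In the main fit the estimates of the genes that turned lay between -0.16 (Col4a5) and 0.25 (Col5a3). Apart from the turns, counts and spread limit what can be detected at under 20 CPM.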
